A study of Schmidtea mediterranea with 152 samples.

Results

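Planarian body-wall muscle is both a contractile tissue and a store of positional information, because its cells express the patterning genes that tell regenerating and resting tissue where it lies. After amputation, muscle cells are found within the blastema, the outgrowth of new tissue at the wound, and at its posterior tip a few of them form the posterior pole, which expresses the Wnt ligand gene wnt1. The transcripts described here are 150 contigs of the planarian Schmidtea mediterranea that more blastema non-pole muscle cells than uninjured non-pole muscle cells contained. They were chosen by this difference, so the difference itself is a description and carries no test.

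The data are single-cell mRNA libraries from 4 groups of cells that were sorted as viable, non-dividing cells of asexual animals. Regenerating non-pole cells came from posterior blastemas 72 hours post amputation (75 libraries), uninjured non-pole cells from intact tail tips (65 libraries), regenerating pole cells from the same kind of blastema (5 libraries) and uninjured pole cells from the same kind of tail tip (7 libraries). The labels give the class of each library. The paper describes a qRT-PCR screen of single-cell cDNA that set the class, with collagen in all cells and wnt1 in pole cells. It reports fewer pole cells and fewer non-pole cells in total than there are libraries here. How the further libraries were classed is not stated. Neither animals nor plates are named in the labels, so each group is 1 sample, cells are not replicates, no p-value is given anywhere, and condition cannot be told apart from any animal or plate that went with it.

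The level of a transcript in a cell is given in CPM, its reads scaled to a total of 1000000 over the 26560 contigs used, and a cell holds a transcript when it has 20 CPM or more. A level of 20 CPM is 1 read in a cell with 50000 reads, the fewest a cell was allowed to have. The members are the first 150 of 26554 ranked contigs by the share of holding cells in regenerating non-pole minus that in uninjured non-pole muscle, with 6 named contigs left out beforehand. Only 8 of the 150 have a name in the study's annotation. The others are called by their number in the transcriptome assembly (dd_585 and so on), and no function is given to them.

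After 6 near-identical pairs of uninjured non-pole libraries were joined and 12 shallow cells left out, there were 69 regenerating non-pole, 53 uninjured non-pole, 5 regenerating pole and 7 uninjured pole cells. The median depth of non-pole cells was 218403 reads in regenerating and 444246 in uninjured tissue, and that of pole cells 906071 and 648498 reads. Of the non-pole cells, 0 of 69 regenerating and 3 of 53 uninjured ones held wnt1, and of the pole cells 5 of 5 and 7 of 7 did. The highest wnt1 level among those 3 uninjured non-pole cells was 224 CPM, above the 23.6 CPM of the lowest uninjured pole cell, and so label and count disagree for some cells. Summed collagen lay under 5000 CPM in 6 regenerating non-pole, 12 uninjured non-pole and 1 uninjured pole cell, and in no regenerating pole cell, although collagen was the marker of the screen. Intervals below are exact 95% intervals for counting error only, since PCR reads carry no molecular identifiers here.

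The median member was held by 72.5% of regenerating non-pole cells and 34% of uninjured non-pole cells. Over the members, the share of holding cells ran from 40.6% to 97.1% in regenerating non-pole muscle and from 7.55% to 64.2% in uninjured non-pole muscle. The difference ran from 57.9 to 32.7 percentage points with a median of 37.3, while the median over the 19510 transcripts with at least 20 summed reads was -0.44. All 150 members passed that read filter. No member was absent from the uninjured cells, and none was held by every regenerating cell. In the blastema 50 members were held by over 80% of cells, against 0 members in uninjured non-pole muscle.

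**Figure D1:**
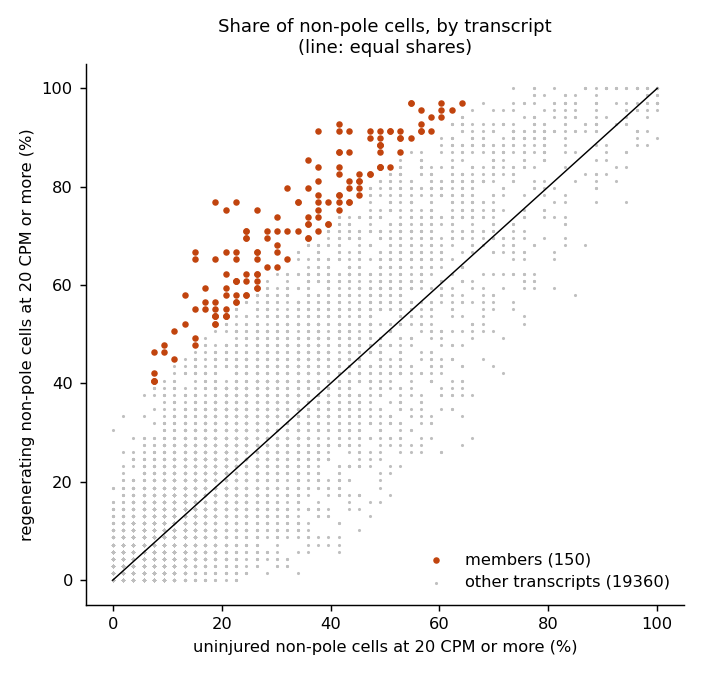
Each point is 1 of the 19510 transcripts with at least 20 summed reads, placed by the percent of regenerating non-pole cells (vertical axis) and of uninjured non-pole cells (horizontal axis) at 20 CPM or more. The 150 members (rust red) lie along the upper edge by construction, and the line marks equal shares.

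At the edge of the choice, the last 3 members were dd_5005 (32.8 percentage points), dd_3090 (32.8) and dd_5000 (32.7). The next 3 transcripts, dd_6562 (32.7), dd_908 (32.7) and dd_849 (32.7), missed it by less than 1 cell. dd_5000 was held by 33 of 69 regenerating and 8 of 53 uninjured non-pole cells, and dd_6562 by 46 and 18. The limit at 150 therefore marks no gap in the data.

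The rule ranked transcripts by how many cells held them, so the levels within holding cells are given here as a description beside the shares. Within holding cells the median level, taken at the median member, was 181.4 CPM in regenerating and 168.5 CPM in uninjured non-pole muscle. For 95 members the holding cells had the higher median level in the blastema and for 55 the lower one. The ratio of the holding-cell levels, regenerating over uninjured, had a median of 1.11 over the members and 0.90 over the 2183 transcripts held by at least 28 regenerating non-pole cells. Those 2183, the members among them, are called widely held below, since 28 cells is also the count of the least widely held member. Regenerating non-pole cells alone defined this set, so it may lean toward them. In uninjured non-pole muscle the median cell had 0 CPM for 87 of the 150 members, and in regenerating non-pole muscle for none.

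The mean level over all cells followed the shares. The log2 fold of mean CPM, regenerating over uninjured non-pole, with a pseudocount of 1 CPM, ran from 0.14 to 3.36 with a median of 1.27 over the members, against a median of 0.26 over the widely held and -0.31 over all 19510 transcripts. It was at least 1 for 99 members and at most -1 for none. Over all transcripts 12.6% were at least 1 and 28.6% at most -1, and since the same contrast chose the members nothing is read from that gap. The pseudocount makes these folds too small for low transcripts.

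The largest difference belonged to dd_585, which the annotation names X1.A5.1. It was held by 53 of 69 regenerating non-pole cells (76.8%, interval 65.1 to 86.1) and 10 of 53 uninjured non-pole cells (18.9%, interval 9.44 to 31.97). Its median cell had 82.5 CPM in the blastema and 0 CPM in the uninjured tail, and its highest cells had 758 and 218 CPM. The cells of both groups overlapped.

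dd_8576 was held by 75.4% of regenerating and 20.8% of uninjured non-pole cells, with median cells of 198.1 and 0 CPM. For dd_2109_1 the shares were 76.8% and 22.6%, and for dd_4279 they were 91.3% and 37.7%. dd_5580, at 66.7% and 15.1%, was the lowest in level of the first 5 members, with a mean of 53.7 CPM in regenerating and 18.4 CPM in uninjured cells. Each of these contigs was thus missing from most uninjured cells and present in a clear majority of blastema cells.

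dd_472 and dd_548 combined a wide presence with a steep difference in level. dd_472 was held by 92.8% of regenerating and 41.5% of uninjured non-pole cells, and its mean level was 510.6 CPM against 117.5 CPM. dd_548 was held by 91.3% and 41.5% of cells, at means of 339.8 CPM and 91.04 CPM. The remaining 8 of the first 15 members were dd_9589, dd_4861, dd_5222, dd_6625, dd_5321, dd_1482, dd_3898 and dd_1794. Their regenerating shares ran from 65.2% to 91.3% and their uninjured shares from 15.1% to 43.4%.

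**Figure D2:**
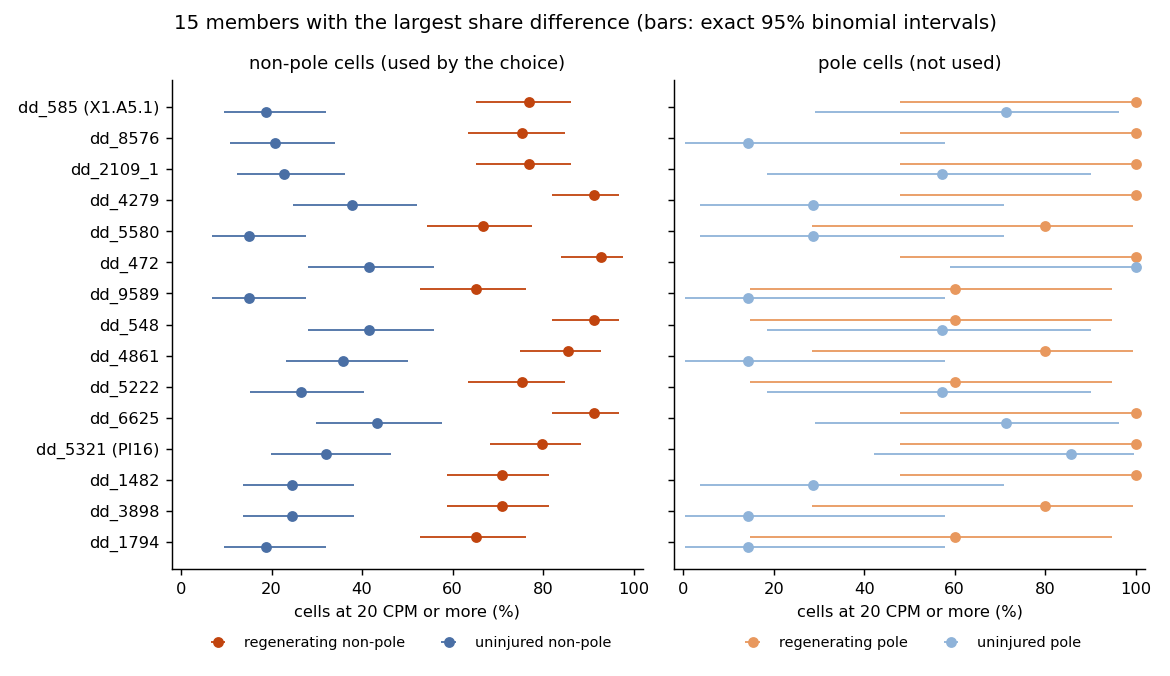
Percent of cells at 20 CPM or more for the 15 members with the largest share difference, with exact 95% binomial intervals. Left, regenerating non-pole (rust red, 69 cells) above uninjured non-pole (blue, 53 cells), the contrast that chose them. Right, regenerating pole (light orange, 5 cells) above uninjured pole (light blue, 7 cells), which the choice did not use and whose intervals are wide.

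Among the 8 named members the highest in level was dd_5321, whose best human match is PI16, a peptidase inhibitor of the secreted CAP protein family. It was held by 55 of 69 regenerating non-pole cells (79.7%, interval 68.3 to 88.4) and 17 of 53 uninjured non-pole cells (32.1%, interval 19.9 to 46.3). The mean was 2250.4 CPM in regenerating and 1156.5 CPM in uninjured non-pole cells, the highest of all members in both groups, and the median cell had 1623.7 and 1.42 CPM. Uninjured cells that held it were not low. Their median was 3930.8 CPM against 2279.3 CPM in holding blastema cells, and the highest cell of all was an uninjured one at 9385 CPM, against 8312 CPM in the blastema.

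dd_10716 matches NOTCH1, a cell-surface receptor that is cleaved on contact with a ligand on a neighbouring cell. It was held by 66.7% of regenerating and 26.4% of uninjured non-pole cells, at means of 330.8 and 202.2 CPM. A single uninjured cell carried 49.7% of that group's reads. dd_2507 matches LPPR5, an integral membrane protein related to lipid phosphate phosphatases in mammals. Its shares were 76.8% and 37.7%, and its means were 648 CPM in regenerating and 230.7 CPM in uninjured non-pole cells.

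dd_4073 matches TRA2B, a splicing regulator in mammals, and was held by 73.9% of regenerating and 35.8% of uninjured non-pole cells (means 149.9 and 83.3 CPM). dd_3117_1 matches CCDC47, a protein of the endoplasmic reticulum membrane in mammals, and was held by 55.1% and 16.98% of cells (means 83.5 and 44.3 CPM). dd_13713, matched to the transmembrane protein TMEM246, was held by 53.6% and 18.9% (means 70.5 and 23.3 CPM). dd_423 matches cystatin A (CSTA), an inhibitor of cysteine proteases, and was held by 47.8% and 9.43% of cells at means of 38.6 and 11.4 CPM. These names are best matches to human proteins, and the roles given are those of the vertebrate proteins.

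The most abundant members after dd_5321 had no name. dd_12 had a mean of 1608.6 CPM in regenerating and 248.3 CPM in uninjured non-pole cells, and dd_1512 had 1328.0 and 256.9 CPM. Both were held by over 90% of blastema cells (94.2% and 91.3%) and by a majority of the uninjured cells (58.5% and 56.6%), so for them the level of the holding cells differed as well. For dd_12 that level was 969.8 CPM at the median holding cell of the blastema and 205.7 CPM in the uninjured tail. dd_3090, dd_1174, dd_16227 and dd_7442 followed with means of 839 and 292, 773 and 238, 765 and 390, and 763 and 299.6 CPM.

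dd_14068 reached 871.8 CPM in regenerating and 302 CPM in uninjured non-pole cells, but through few cells. Only 39 of 69 blastema cells held it, the median cell had 158.7 CPM and the highest had 15138 CPM. Members whose reads were most concentrated in 1 regenerating non-pole cell were dd_7394 (26.5% of the group's reads), dd_9123 (25.6%), dd_1610 (24.6%), dd_5882 (24.2%) and dd_14068 (23.995%). At the median member the top cell carried 12.8% of the reads in regenerating and 29.7% in uninjured non-pole muscle. No member had over 50% of its regenerating non-pole reads in 1 cell, whereas 25 members did in the uninjured group, so uninjured means rest on fewer cells.

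**Figure D3:**
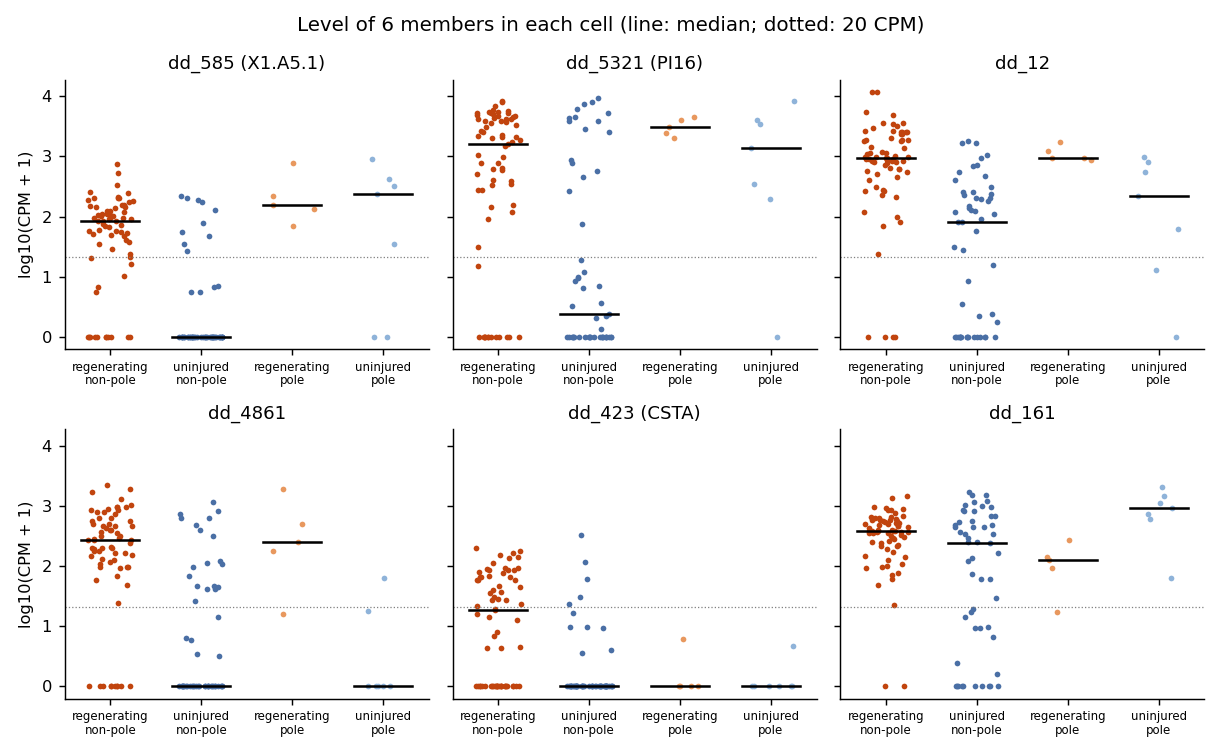
Level of 6 members in every cell, as log10 of CPM plus 1, with regenerating non-pole, uninjured non-pole, regenerating pole and uninjured pole cells from left to right, a line at the median and a dotted line at 20 CPM. dd_585 and dd_5321 split uninjured non-pole cells into holders and cells near 0, dd_423 is near 0 in all 12 pole cells, and dd_161 has a higher median in uninjured than in regenerating pole cells.

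Members rarely followed one another from cell to cell. Over the 11175 pairs of members, the median Spearman correlation of CPM was 0.06 over the 69 regenerating and 0.12 over the 53 uninjured non-pole cells, and 0.367% of the pairs exceeded 0.5 in the blastema, against 1.18% in uninjured non-pole muscle. The cells of a group share their condition and differ in depth, so these values are descriptions. The 3 highest pairs joined dd_2697, dd_2143 and dd_2679, with correlations of 0.87 to 0.89 in regenerating and 0.93 to 0.97 in uninjured non-pole cells. dd_2697 and dd_2679 were held together by 60 regenerating cells and singly by 2. Whether these 3 contigs share reads cannot be seen from the counts, and they may not be separate genes.

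The next pairs were dd_5321 with dd_8804 (0.78 in regenerating and 0.50 in uninjured cells) and dd_1465_1 with dd_1465 (0.72 and 0.63). The last are 2 rows of 1 contig number, so reads may be split between them. dd_1465_1 was held by 63 of 69 regenerating and 26 of 53 uninjured non-pole cells, and dd_1465 by 28 and 4. Together with the contigs of the preceding paragraph they mean that the 150 rows may stand for somewhat fewer genes.

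Counted cell by cell, the median regenerating non-pole cell held 76.7% of the 150 members (range 32% to 87.3%) and the median uninjured non-pole cell 33.3% (range 8.67% to 67.3%). In regenerating non-pole muscle 63 of 69 cells held at least 50% of the members (91.3%, interval 82.03 to 96.7), against 11 of 53 in uninjured non-pole muscle (20.8%, interval 10.8 to 34.1). At 70% or more there were 49 regenerating and 0 uninjured non-pole cells, and 0 of 53 allows a share of up to 6.72% by the exact interval. The members' summed level was 41700 CPM in the median regenerating and 16783 CPM in the median uninjured non-pole cell. The ranges overlapped, so no cell count separates the conditions fully. These same cells chose the members, so the gap between the non-pole groups was built in by the choice. It is a description, and the intervals do not estimate its size.

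Cells that held many members also held many other transcripts. Of the widely held transcripts that are not members, the median non-pole cell held 63.7% in the blastema and 50.1% in the uninjured tail, and the median pole cell 63.1% and 43.8%. That set was defined by regenerating non-pole cells, so part of the gap between the non-pole groups was built in. Over all contigs used, the median non-pole cell held 2934 transcripts in the blastema and 2475 in the uninjured tail, with overlapping ranges. Across cells, the number of members held went with that share, with a Spearman correlation of 0.86 over the 69 regenerating and 0.91 over the 53 uninjured non-pole cells. With reads per cell the correlations were 0.39 and -0.33, and with the mitochondrial share of all reads 0.24 and 0.01. The members' share minus that of the other widely held transcripts was 11.3 percentage points in the median regenerating and -16.0 in the median uninjured non-pole cell. The part that a broader content of transcripts per cell plays in the members' difference was not tested.

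**Figure D4:**
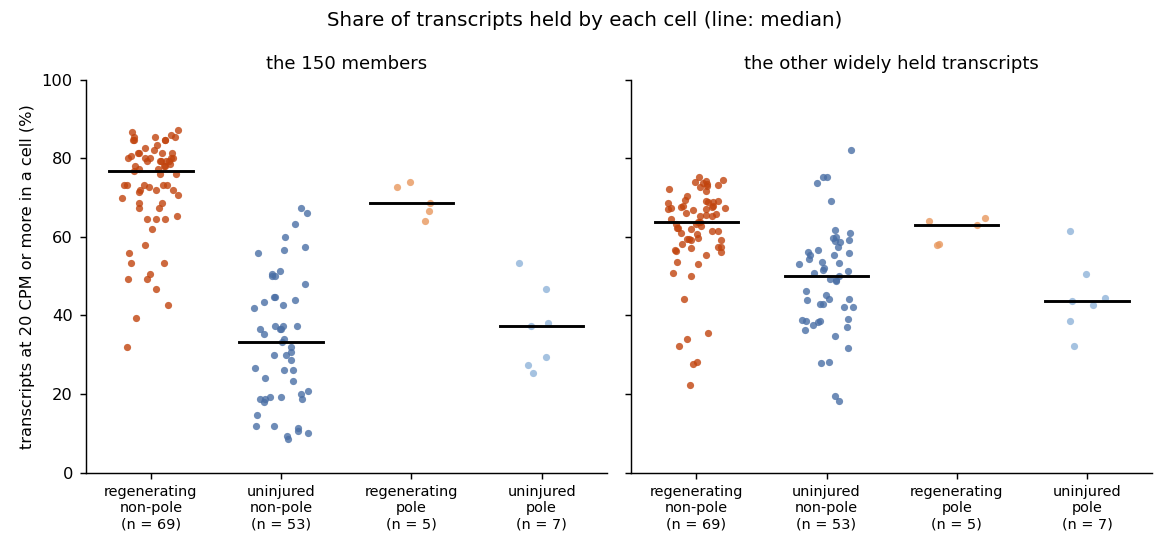
Percent of transcripts at 20 CPM or more in each cell (points), for the 150 members (left) and the other widely held transcripts (right), with regenerating and uninjured non-pole, then regenerating and uninjured pole cells from left to right and a line at the median. The members' medians are 76.7%, 33.3%, 68.7% and 37.3%, and those of the other transcripts 63.7%, 50.1%, 63.1% and 43.8%.

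With every cell thinned to 50000 reads, the median member was held by 73.9% of regenerating and 34.9% of uninjured non-pole cells, close to the unthinned 72.5% and 34%. The 13 collagen contigs summed to 58990 CPM in the median regenerating and 66364 CPM in the median uninjured non-pole cell, and the 12 contractile contigs to 32466 and 25775 CPM. Collagen-poor cells held fewer members, with a median of 48% in 6 regenerating and 28.7% in 12 uninjured non-pole cells. Without them the medians of the other cells were 78% and 34%.

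The library numbers in the labels run through the 4 groups in 8 alternating stretches of uninjured and regenerating libraries, which the labels do not call batches. In the 4 regenerating stretches the median non-pole cell held 72% to 79.3% of the members, and in the 4 uninjured stretches 24% to 48%. Between neighbouring stretches, 92% to 100% of the members had the higher share in the regenerating cells, beside 52.4% to 85.8% of the widely held transcripts. The difference at the median member was 39.7, 47.5, 23.7 and 45.04 percentage points in the 4 neighbouring pairs, the lowest being that of 23 regenerating against 11 uninjured cells. Because these cells chose the members and defined the widely held set, the agreement among stretches is a description.

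Pole cells took no part in the choice, although nothing in the labels says that they came from other animals. With the stretches of library numbers counted in order, all 5 regenerating pole cells lay in stretch 2, beside 9 regenerating non-pole cells. The uninjured pole cells lay in stretch 1 (4 cells) and stretch 3 (3 cells). Stretch and condition therefore cannot be told apart in pole cells. The median member was held by 80% of regenerating pole and 28.6% of uninjured pole cells. A higher share in regenerating pole cells was found for 88% of the members, an equal share for 4% and a lower share for 8%. Among the widely held transcripts, the members included, 71.4% had a higher share in regenerating pole cells, below the 88% of the members. Regenerating non-pole cells defined that set, so it may lean toward regenerating cells, and the same percent over all 19510 transcripts is not given here. The median difference was 31.4 percentage points over the members, 17.1 over the widely held and 0 over all 19510 transcripts.

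Each of the 5 regenerating pole cells held more members than any of the 7 uninjured pole cells. The 5 cells held 64%, 66.7%, 68.7%, 72.7% and 74% of the members, and the 7 cells 25.3%, 27.3%, 29.3%, 37.3%, 38%, 46.7% and 53.3%. The groups stayed apart after thinning to 50000 reads (66.7% for the lowest regenerating and 56% for the highest uninjured pole cell). They also stayed apart once each cell's share of the other widely held transcripts was taken off, with 4.53 to 9.56 percentage points in regenerating and -18.4 to 2.25 in uninjured pole cells. The members' summed level did overlap, at 35577 to 48231 CPM in regenerating and 13536 to 37790 CPM in uninjured pole cells. The uninjured pole cell at 27.3% had only 84813 reads and 271 CPM of collagen, so its muscle identity is weakly borne out.

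The log2 fold of mean CPM, regenerating over uninjured pole, was at least 1 for 66 of the 150 members (44%) and at most -1 for 15 (10%), and 69 lay between. Over all 19510 transcripts 20.1% were at least 1 and 28.2% at most -1, and over the widely held transcripts 32.8% and 22.4%. The median fold was 0.69 over the members, 0.27 over the widely held and 0 over all transcripts. Over the members it was 1.14 without uninjured pole replicate 3 and 1.71 when reads were pooled over the cells of a group, beside 0.35 and 0.68 over the widely held. Scaling by TMM factors, which assume that most transcripts are unchanged, lowered pole folds by 0.34 before the pseudocount is added. It gave a median of 0.35 over the members, with 59 at least 1 and 23 at most -1, beside 27.1% and 28.4% of the widely held transcripts, and the members' median stood 0.40 above that of the widely held, against 0.42 as measured. A factor per group moves all folds alike apart from the pseudocount. The distance between the members and other transcripts could therefore hardly change, and nothing is read from its likeness under both scalings. More members counted as lower with TMM factors. Of 11 neuron markers, 6 had a pole log2 fold of at least 1 and 2 of at most -1, with a median of 1.44. Their summed level was 473.5 to 2549 CPM in regenerating and 11.8 to 1084 CPM in uninjured pole cells, with medians of 1467 and 457.5 CPM, and their part in the members' pole values was not tested.

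**Figure D5:**
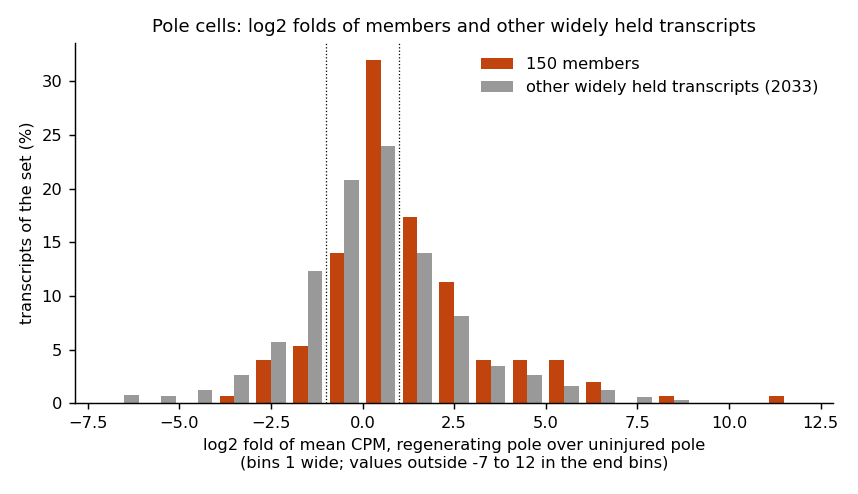
Percent of the 150 members (rust red) and of the other widely held transcripts (grey) by log2 fold of mean CPM, regenerating pole over uninjured pole, in bins 1 wide, with dotted lines at -1 and 1. The members hold 10% at or below -1 and 44% at or above 1.

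No member separated the 2 pole groups cell for cell, in either direction, while 0.641% of the widely held transcripts had every regenerating pole cell above every uninjured one. Each single member overlapped between the groups although the count of members per cell did not. With 5 and 7 cells, intervals of the shares are wide, as 5 of 5 cells allows any share above 47.8%. Over 50% of a member's reads lay in 1 cell for 60% of the members in regenerating pole and for 83.3% in uninjured pole cells, so the means on both sides of a pole fold often rest on 1 cell.

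The members with the largest difference in share between pole groups are unnamed contigs. dd_8576 had 33.7, 515, 127.8, 198.7 and 436 CPM in the 5 regenerating pole cells. In uninjured pole cells it was at 566 CPM in 1 cell, 10.2 CPM in another and 0 in the other 5. Every blastema pole cell held it and 1 of 7 uninjured pole cells did, that one being above all 5.

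dd_7723 had 38.5, 628, 211, 1863 and 326 CPM in the regenerating pole cells, against a lowest of 0, a median of 0 and a highest of 282 CPM in the uninjured pole cells. dd_4279 had 76.9, 383, 71.6, 101.5 and 657 CPM, against 36.97 and 135.3 CPM in 2 uninjured pole cells and 0 in 5. Its log2 fold was 3.34 and that of dd_7723 was 3.38. For both, the highest uninjured pole cell lay above at least 2 of the 5 regenerating ones.

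dd_2542, dd_1482, dd_3495, dd_537 and dd_7701 showed the same arrangement, with all 5 regenerating pole cells and 2 of 7 uninjured pole cells holding each. Their log2 folds ran from 2.06 (dd_7701) to 2.69 (dd_2542). In all, 12 members were held by every regenerating pole cell and by at most 2 uninjured pole cells. dd_7701 was the highest of these 5, at 274, 331, 1360, 635 and 2183 CPM in regenerating pole cells, against 833 and 760 CPM in its 2 uninjured holders.

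Among the first 15 members, dd_4861 had one of the steepest pole differences. It was at 1957, 507, 256, 178.8 and 15.04 CPM in regenerating pole cells and at 62.2 CPM in 1 uninjured pole cell, 16.9 in another and 0 in 5, a log2 fold of 5.57. dd_585, first by the non-pole difference, did not share it. Its regenerating pole cells had 67.3, 130.7, 765, 217.4 and 152.1 CPM and its uninjured pole cells ran from 0 over a median of 232 to 915 CPM, a log2 fold of -0.04. dd_472 was held by all 12 pole cells, with means of 1015.5 CPM in regenerating and 579 CPM in uninjured ones.

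The named members differed from one another in pole cells. dd_5321 (PI16) was high in both groups, at 4010, 3064, 4554, 1990 and 2423 CPM in regenerating pole cells and from 0 over a median of 1388.7 to 8497 CPM in uninjured ones, a log2 fold of 0.33. dd_10716 (NOTCH1) had 0, 398, 1073, 386 and 1910 CPM in regenerating pole cells, against a median of 2.11 and a highest of 643 CPM in uninjured ones (log2 fold 2.44). dd_2507 (LPPR5) had 524, 901, 404, 17.7 and 1024 CPM, against 778 CPM in 1 uninjured pole cell and 0 in the other 6 (log2 fold 2.36). NOTCH1 and LPPR5 were each held by 4 of 5 regenerating pole cells.

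dd_3117_1 (CCDC47) had 0, 17.8, 33.75, 40.8 and 68.5 CPM in regenerating pole cells and no read in 7 uninjured ones. A count of 3 reads over that group sets a floor of 0.258 CPM. The pooled level of dd_3117_1 in regenerating pole cells was 136.3-fold that floor, a ratio that allows for counting error of reads only. By the exact interval, 0 of 7 holding cells allows a share of up to 40.96%. dd_13713 (TMEM246) likewise had no uninjured pole read, but 1 regenerating pole cell carried 99.4% of its reads. dd_4073 (TRA2B) had 28.8, 463, 1.02, 90.5 and 254 CPM against a median of 0 and a highest of 1444 CPM, and its log2 fold was -0.85.

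In all, 7 members had no read in uninjured pole cells. Besides dd_3117_1 and dd_13713 they were dd_6290, dd_6094, dd_3393, dd_24929 and dd_49266. The pooled level of dd_6290 in regenerating pole cells was 1455-fold the floor, with 1134, 287 and 1.67 CPM in 3 cells and 0 in 2. That of dd_3393 was 517-fold, with 286, 70.6 and 237 CPM in 3 cells. A single cell carried 79.4% of the reads of dd_6290 and 57.6% of those of dd_3393. These ratios allow for counting error of reads only and set no lower bound on a difference between cells. dd_49266 had 1 read in regenerating pole cells, too few for any ratio. Setting the 7 members to this floor left the median log2 fold at 0.69 and gave 67 members at 1 or more, against 66 as reported. The added member is dd_49266 with its 1 read, so nothing is read from that rise.

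By mean CPM the most abundant members kept their order of conditions in pole cells. dd_12 had 870, 958, 1728, 1214 and 931 CPM in regenerating pole cells, against a lowest of 0, a median of 221 and a highest of 975 CPM in uninjured ones (log2 fold 1.61). dd_1512 had 788.5, 1166, 1314, 1063 and 294 CPM, against a median of 11.8 and a highest of 977 CPM (log2 fold 1.71). dd_16227 and dd_3090 had log2 folds of 1.17 and 1.25. dd_1174 had 437.5, 0, 946, 321 and 13.4 CPM in regenerating pole cells, against 483 and 458 CPM in its uninjured holders. dd_7442 had 2481, 0, 6.14, 234 and 0 CPM, against 120, 219 and 22.3 CPM in its uninjured holders. Its higher mean thus rests on 1 cell, and its share of holding cells was not higher in regenerating pole cells. dd_14068 had 15472 CPM in 1 regenerating pole cell and 0 in the other 4, against a single read in the uninjured pole cells, so its value describes 1 cell.

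A minority of the members went the other way at the pole. dd_161 was held by 67 of 69 regenerating and 34 of 53 uninjured non-pole cells, yet its mean differed little between those groups (422 and 384 CPM). In pole cells it had 125.01, 141.1, 16.4, 269 and 93.6 CPM in regenerating ones and 1486, 604, 922, 1123, 63.6, 734 and 2079 CPM in uninjured ones, a log2 fold of -2.95. All but 1 of the uninjured pole cells lay above every regenerating one.

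dd_2124 had 4.81, 0, 478, 202 and 481 CPM in regenerating pole cells, against a median of 354 and a highest of 1512 CPM in uninjured ones (log2 fold -1.33). dd_237 (-2.53), dd_625 (-2.07) and dd_686 (-1.42) were also lower by mean and were held by fewer regenerating than uninjured pole cells in percent. dd_1989 was held by 40% of regenerating and 57.1% of uninjured pole cells but had the higher mean in regenerating ones (79.7 against 48.2 CPM).

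A few members were held by no pole cell, or by 1, although most of them had some reads there. dd_423 (CSTA), held by 33 of 69 regenerating non-pole cells, was held by no pole cell of either condition, with 5.11 CPM as the highest regenerating and 3.63 CPM as the highest uninjured pole value. dd_21691, dd_1465 and dd_49266 were likewise held by no pole cell. dd_1611 and dd_1797 were held by 0 of 5 regenerating and 1 of 7 uninjured pole cells. By the exact interval, 0 of 5 cells allows a share of up to 52.2%, so absence from regenerating pole cells was not shown at this number of cells.

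Lists of planarian genes from the study's annotation give the surrounding of the members, and they were drawn up with earlier results of these data known. They hold 205 entries in 16 lists, of which 194 had at least 20 summed reads. Only dd_4073 (TRA2B) is a member. Of the 16 secretory pathway genes 15 passed the filter. In non-pole muscle 3 had a log2 fold of at least 1 (SERP2, a stress-associated endoplasmic reticulum protein gene, 1.37, SRP14, 1.16, and EMC2, 1.10). Only 1, dd_348 (PPIC, -1.15), was at most -1. SRP14 was held by only 7 regenerating and 2 uninjured non-pole cells, at means of 7.34 and 2.73 CPM, and dd_348 by 1 and 2. Over all transcripts the shares were 12.6% and 28.6%. The median of the secretory genes was 0.70, above the -0.31 of all transcripts. At the pole 4 were at least 1 and 7 at most -1, with a median of -0.83 against 0, beside shares over all transcripts of 20.1% and 28.2%. The summed level of the list overlapped between the pole groups, at 302.5 to 1835 CPM in regenerating and 171.1 to 1527 CPM in uninjured pole cells.

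Contractile genes stayed within a log2 fold of 1 in non-pole muscle for 12 of 12, with a median of 0.19, and collagens for 13 of 13, with a median of -0.20. At the pole 7 of 12 contractile genes were at least 1 and 1 at most -1, beside 20.1% and 28.2% of all transcripts, and the groups' summed contractile levels overlapped, at 7699 to 32895 CPM in regenerating and 283 to 27713 CPM in uninjured pole cells. Of the Wnt pathway genes 16 passed, 4 at least 1 and 1 at most -1 in non-pole muscle, beside 12.6% and 28.6% of all transcripts. The 4 were sfrp1, fz5/8-4, FZD5 and beta-catenin-1. Of these sfrp1 and fz5/8-4, with Wnt11-2, belong to the 6 contigs left out of the ranking. FZD5 was held by only 2 regenerating and 0 uninjured non-pole cells. The lower gene was wnt1 (-2.43), whose absence marked the non-pole class. beta-catenin-1, the transcriptional effector of Wnt signalling, had 319 CPM in regenerating and 126.6 CPM in uninjured non-pole cells and a share difference of 28.9 percentage points.

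Genes of the lists closest to membership were the NMDA-type glutamate receptor match GRIN1 (32.4 percentage points), the matrix gene ADAMTSL1 (32.3) and the slit receptor ROBO2 (31.7). ROBO2 had 750.6 CPM in regenerating and 357 CPM in uninjured non-pole cells, but was held by 0 of 5 regenerating pole and 1 of 7 uninjured pole cells. Among markers of other cell types, of 9 cilia genes with enough reads, 7 had a log2 fold of at most -1 and 0 of at least 1 in non-pole muscle, and of 10 cell division genes 6 and 0. Of 11 neuron genes 4 were at most -1 and 1 at least 1. The shares over all transcripts were 28.6% at most -1 and 12.6% at least 1, so the neuron count lay near them. The summed neuron level was 478.5 CPM in the median regenerating and 311.5 CPM in the median uninjured non-pole cell, with overlapping ranges. The summed cilia level was 0 CPM in the median regenerating and 0.733 CPM in the median uninjured non-pole cell, with highest cells of 426 and 1362 CPM.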

How the data were processed

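Single-cell mRNA libraries were analysed from the read counts the authors deposited. CASAVA 1.7.0, Trimmomatic 0.32 and Bowtie (no version) are credited to the submitters' processing notes, and no source used here gives the counting tool. The deposited table of SCDE comparisons (fold estimates with bounds, Z scores) served only for its list of 26560 contigs. The 6 other rows, with 63.6% of reads, stayed out of the totals.

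Near-identical pairs of libraries (chi-square over degrees of freedom under 10, 6 of 9730 pairs, 1.28 to 7.40) were summed to 1 cell each, and cells with 50000 or more reads were kept. Libraries held 335 to 6473250 reads. No doublet filter was applied. Shares were given Clopper-Pearson intervals. Log2 folds are of mean CPM over cells with a pseudocount of 1 CPM, for transcripts with at least 20 summed reads. Each group is 1 sample, so no test was run.

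Named were the 15 members with the largest difference, all annotated members, the 8 most abundant, the 8 with the largest and the 8 with the smallest pole difference in share, the 5 most concentrated in 1 cell, 6 at the threshold and 5 pairs, and other contigs named were chosen after their values were seen. The members and lists were chosen with earlier results of these data known. Alternatives were other CPM thresholds, thinning, cell filters, pooled CPM, TMM factors (edgeR 4.0.16), other pseudocounts and leaving out each pole cell. The scripts were tested on simulated data.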

Additional observations from a re-analysis of the deposited data

Results flagged for a closer look

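Of 14 per-cell summaries examined in the pole groups of 5 and 7 cells, 1 stood apart. The summed contractile level of regenerating pole replicate 2 was 32895 CPM, against 14208 CPM in the next regenerating pole cell. About 1 in 20 such groups is expected to stand apart by chance. That cell held 68.7% of the members, the middle value of its group. Without it 67 members had a log2 fold of at least 1 and 19 of at most -1 in pole cells, beside 32.1% and 24.8% of the widely held transcripts.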

How the results depend on the processing

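Of the 150 members, 66.7% to 98% were chosen again under the other thresholds, depths, cell filters and row sums, fewest at 50 CPM. The median difference, 37.3 percentage points as reported, was 34.7 to 40.9 under these alternatives. It was 36.9 without the 3 uninjured non-pole cells that held wnt1, an alternative added after the data were seen, with 90% chosen again. Within neighbouring stretches of library numbers, also added later, it was 47.5, 23.7 and 45.04 for 3 of the 4 pairs. In pole cells, 23 members rather than 15 were at most -1 with TMM factors, beside 28.4% rather than 22.4% of the widely held transcripts. Pooled CPM gave 91 members at least 1 instead of 66 and a median log2 fold of 1.71 instead of 0.69. The widely held transcripts at least 1 rose with it, to 43.8% from 32.8%, and those of all transcripts to 23.4% from 20.1%. Leaving out each pole cell in turn gave 63 to 79 members at least 1, 13 to 22 at most -1, a median log2 fold of 0.63 to 1.14 and 83.3% to 88.7% with a higher share. The median share of members held by a regenerating pole cell was 62% at a threshold of 50 CPM, against 68.7%. Genes of the lists with a log2 fold of at least 1 in non-pole muscle numbered 45 with pooled CPM against 26, and those of at most -1 numbered 16 with a pseudocount of 10 CPM against 33. The cause of these shifts was not tested. No paired analysis was possible because the labels carry no replicate numbers and those used only name the cells. The number of pole cells limits every pole value, and 1 sample a group leaves condition, animal and plate together.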
